A study of Physcomitrium patens with 6 samples.

Results

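Transcripts of caulonemal and chloronemal cells, the filament types that make up the protonema of the moss Physcomitrella patens, were compared by tag profiling of cells cut out of 14-day-old protonemata by laser-capture microdissection. The genes compared were those with over 100 tags in at least 1 of the 2 captured libraries, which were 4292 of the 15189 gene models listed in either library and of the 19265 listed in the series. Of these, 2248 passed 100 tags in both libraries, 1821 in caulonema alone and 223 in chloronema alone. The highest tag count lay between 101 and 110 for 348 of the genes kept and between 91 and 100 for 353 of those left out.

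In moss, protonemata regenerate from protoplasts as chloronema, a filament of short cells packed with large round chloroplasts. Caulonema arises later from chloronemal tip cells. Its cells are longer, hold fewer chloroplasts, grow faster at the tip, carry oblique cross walls and bear the side branches and buds from which leafy shoots grow. Auxin favours the transition to caulonema, and light and energy supply are known to shift the balance between both filament types.

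The captured groups were chloronema (1 library) and caulonema (1 library), both cut from live 14-day-old protonemata of the subspecies patens that had been regenerated from protoplasts on medium with ammonium tartrate and glucose. No genotype other than this, no transgene and no treatment is given for either group, and a minority of the cells in each were dividing cells at filament tips or branches. Every library combined 3 biological replicates before sequencing, so that no spread between plants could be measured, and a difference below is one between 2 libraries and has no replicate check. The other 4 libraries of the series, made from uncut tissue collected 3, 14, 24 or 30 days after protoplasts were isolated, are used beside the captured ones. Their RNA was extracted with another reagent than that of the captured cells, and the labels call all 4 leafy shoot while the protocol gives protonema for the first 3. Gene symbols are those of the Arabidopsis homologue or best protein match. Filaments were sorted by shape, and no transcript that defines either type was named in the sources used here, so that the labels could only be set against the chloroplast genes described below.

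The chloronema library held 1733082 gene tags and the caulonema library 2557991, against 2281272 to 7027742 in the uncut-tissue libraries. Tags assigned to genes made up 52.8% of the tags used as the TPM divisor in chloronema and 75.2% in caulonema. Trimmed mean of M-values (TMM) factors over the 6 libraries were 1.01 and 1.20. Ratios below are caulonema over chloronema after this scaling, with exact binomial 95% intervals that cover counting error only. Fewer expressing cells and less RNA per cell cannot be told apart in such pools.

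In this assay a transcript is read as 21 bases that begin at a CATG site near its 3′ end, and these letters carried much of the difference between the libraries. The tags below show it for 13 genes, with bases 5 and 6, next to the CATG site, and bases 20 and 21, at the other end, in capitals. The first 4 have TC after the site, the next 3 end in CC, 4 end in TT, and the last 2 have neither.

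PsaO (Pp1s248_60V6.1): catgTCcattcgttgtttaTA
ABI3 (Pp1s173_143V6.1): catgTCtgttggcctaaaaTC
EF-hand protein (Pp1s107_171V6.1): catgTCtgtcctcttccgcGG
transketolase (Pp1s120_127V6.1): catgTCcatttagcagtaaAA
PSBR (Pp1s15_409V6.1): catgGCctgttccctggttCC
RuBisCO-type protein (Pp1s251_44V6.1): catgTTcggatgccaggacCC
PER1 (Pp1s12_126V6.1): catgACatcctttcatatgCC
MSS1 (Pp1s101_17V6.1): catgAGgtagtccgattgaTT
PIF3 (Pp1s84_22V6.1): catgATcactatcagtcacTT
scpl20 (Pp1s131_72V6.1): catgGGtttagagcaactaTT
PORA (Pp1s108_171V6.2): catgGAgataacaattataTT
wall carboxylesterase (Pp1s215_36V6.1): catgAGtttggtatcgtggAC
lipid-transfer protein (Pp1s136_71V6.1): catgAGattgaattttaaaCA

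Among the 3951 genes with a single tag, 257 had TC at bases 5 and 6, and 163 of them (63.4%) were called higher in chloronema while 11 were called higher in caulonema. Of the 425 whose tag ended in TT, 294 (69.2%) were called higher in caulonema and 2 higher in chloronema, and of the 86 that ended in CC, 74 (86.0%) were called higher in chloronema. Tags with TC next to the site took 4.33%, 5.47%, 3.44% and 4.22% of all gene tags from day 3 to day 30, against 15.2% for chloronema and 7.33% for caulonema. Tags that ended in TT took 7.52%, 7.79%, 8.62% and 1.99% on the same days, 3.52% in chloronema and 10.3% in caulonema. Chloronema thus stood apart from all other libraries at the CATG end. At the other end chloronema and day 30 were low and caulonema was the highest of the 6.

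A fit of the log2 ratio on both pairs of end bases took up 36.3% of its variance across genes, against 1.38% for day 14 over day 3, 10.5% for day 24 over day 14 and 22.9% for day 30 over day 24. The tag-end-adjusted ratio given below is the ratio divided by this fitted effect, a step chosen after the data were seen. It is given beside the main ratio for most genes named below. The end bases and the tissue cannot be told apart gene by gene, since each gene has 1 tag. The fit adds the effects of both ends and can overshoot for a tag with TC at one end and AA at the other, as for the abundant Pp1s240_68V6.1, whose ratio went from 1.31 to 5.98.

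A gene was called when its ratio passed 2-fold with an exact binomial p under 0.01 and an adjusted p (Benjamini-Hochberg over the 4292 genes) under 0.001. Of the tested genes, 38.4% (1646) were called, 21.8% (936) higher in caulonema and 16.5% (710) higher in chloronema, and 61.6% lay within 2-fold. Differences over 4-fold were called for 256 genes in caulonema and 173 in chloronema, and over 10-fold for 44 and 25. At these depths counting error is small, so that the fold limit decided nearly every call. The minimum of 100 tags itself bears on this split, since a gene that passed it in caulonema alone (1821 genes) or chloronema alone (223) tended to be one that is higher there. Among genes with over 100 tags in both libraries, 29.2% were called (657), 7.16% higher in caulonema (161) and 22.1% higher in chloronema (496). When genes were instead taken by over 100 tags at day 14, a filter that does not use the captured counts, 6425 genes were tested and 29.2% called (1874), with 14.5% (932) towards caulonema and 14.7% (942) towards chloronema. The excess of calls towards caulonema thus went with the filter. Several gene lists are given under the day-14 filter as well, which was chosen after the data were seen.

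**Figure D1:**
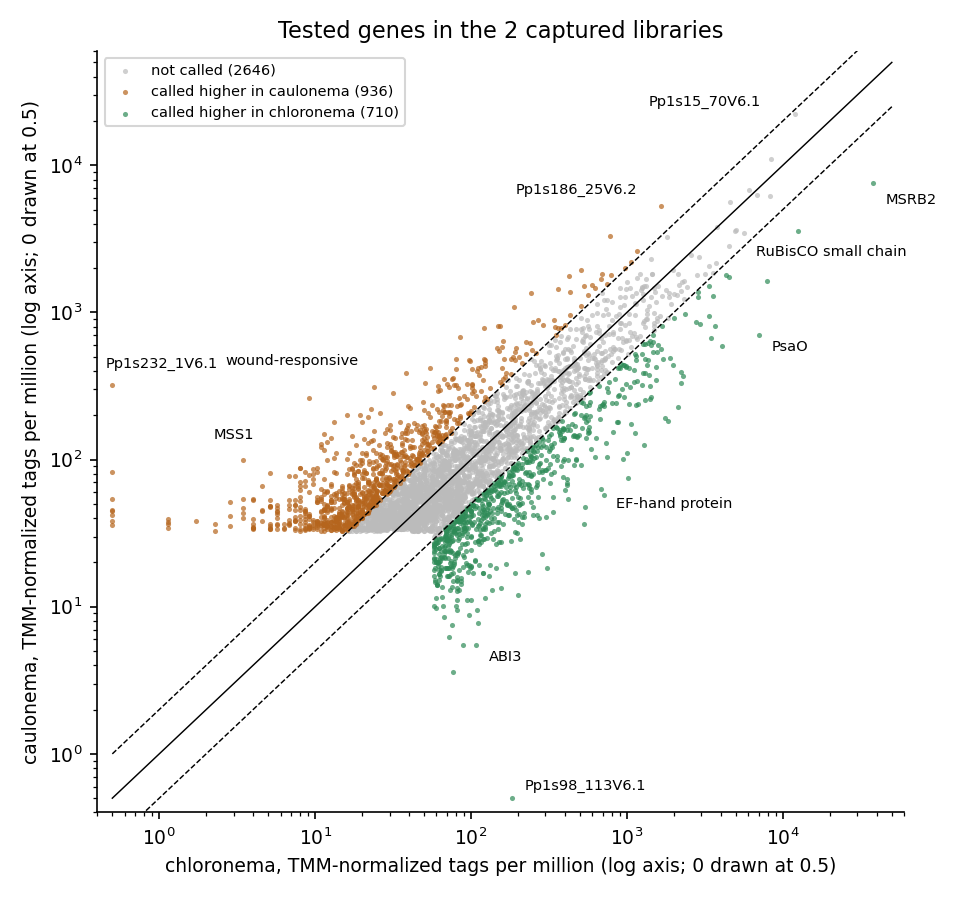
Level of each tested gene in the chloronema library (x axis) and the caulonema library (y axis), in TMM-normalized TPM on log axes; the solid line marks equal levels and the dashed lines 2-fold. Points called higher in caulonema (936) lie above the band, those called higher in chloronema (710) below it, and the 2646 genes between them were not called.

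Under the other scalings of the libraries the split moved. Total gene tags gave 1190 genes higher in caulonema and 511 higher in chloronema, DESeq2 size factors 854 and 793, TMM over the captured libraries alone 918 and 727, and the deposited TPM 1978 and 265. The median log2 ratio over all tested genes was 0.13 under TMM, 0.37 under total gene tags and 0.88 under the deposited TPM. Lists are therefore described by their median relative to that of all tested genes, which the scaling does not move, and beside the counts stand those genes with the same call under all 5 scalings, 26.1% of the tested genes (19.9% higher in caulonema and 6.17% higher in chloronema). After the tag ends were adjusted, 26.7% of the 3951 genes were called, 17.1% higher in caulonema and 9.57% higher in chloronema. Of these, 793 genes had the same call before adjustment (518 and 275), and 2 had the opposite one. Genes that met all of these conditions, called a held call here, were 15.4% of the 3951, with 484 (12.3%) higher in caulonema and 125 (3.16%) higher in chloronema.

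**Figure D2:**
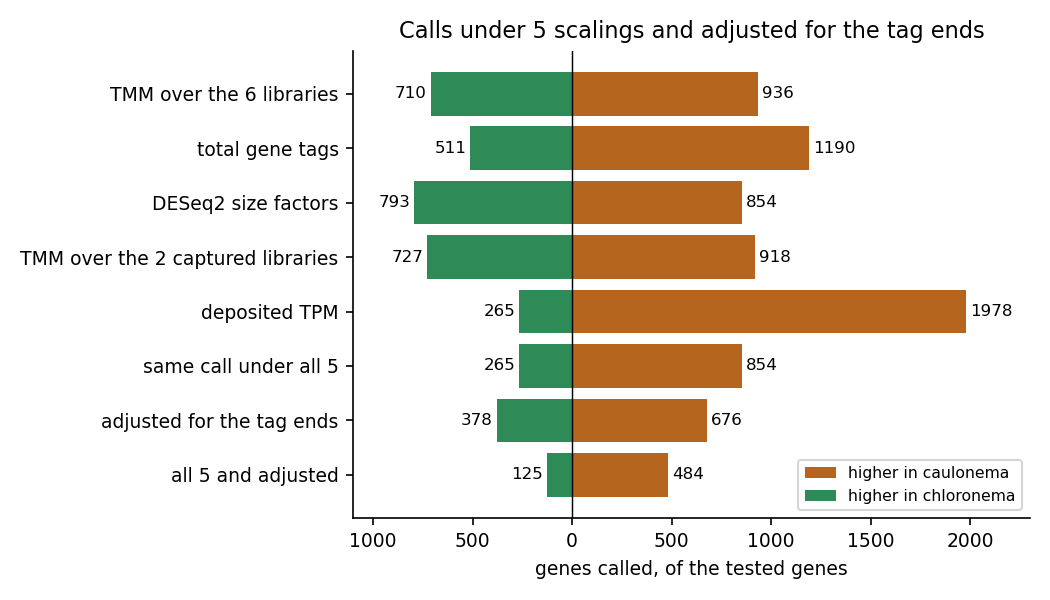
Numbers of genes called higher in caulonema (right) and in chloronema (left) under each of 5 scalings, with the same call under all 5, after adjustment for the tag ends, and with both conditions. Calls towards caulonema range from 854 to 1978 over the scalings and calls towards chloronema from 265 to 793, and 484 and 125 met every condition.

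Counts of calls in gene lists are read against these shares, and list medians beside the abundance of their members. Over 6 equal classes of day-14 level, from lowest to highest, the median relative log2 ratio of the tested genes went from 0.49 to -0.38. Under the day-14 filter it went from 0.12 to -0.22, and among genes over 100 tags in both libraries the 6 medians lay between -0.08 and 0.12 with no such order. Most of that gradient thus went with the filter, and the part of abundance in a list's median was not tested.

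Under the main filter chloroplast lists had medians below that of all genes. Of 94 genes of photosystems and light harvesting, 19 were called higher in chloronema and 15 higher in caulonema, with a median relative log2 ratio of -0.22 before and after adjustment of the tag ends. Other thylakoid genes were called higher in chloronema in 35 of 151 cases and higher in caulonema in 16 (median -0.29, adjusted -0.47). Genes of the plastid stroma gave 62 and 38 of 295 (median -0.33, adjusted -0.29), and chlorophyll and porphyrin synthesis gave 9 and 4 of 35 (median -0.27, adjusted -0.21). Held calls were few. The photosystem list had 4 towards chloronema and 7 towards caulonema of 89, the other thylakoid genes 9 and 5 of 141, and the stroma list 12 and 15 of 275. Among all 3951 genes 3.16% held towards chloronema and 12.3% towards caulonema, so that the share towards caulonema was below the background in all 3 lists. Under the day-14 filter 17.7% of the photosystem genes were called higher in chloronema and 13.3% higher in caulonema, against 20.98% and 8.29% of the other thylakoid genes. The median photosystem gene lay in the highest class of day-14 level, whose own median was -0.38. Among genes over 100 tags in both libraries the median was 0.16 for photosystem genes, -0.10 for other thylakoid genes and -0.08 for the stroma. A smaller family of 17 photosystem subunits found by name had 7 genes called higher in chloronema and 2 higher in caulonema (median -0.79, adjusted -0.34), with 2 and 1 of 15 after adjustment.

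Among the photosystem subunits found by name, PsaO, a small subunit of photosystem I, had the most tags. Pp1s248_60V6.1 had 8502, 44406, 4217 and 2745 tags from day 3 to day 30, then 12392 for chloronema and 2167 for caulonema. It was 10.02-fold higher in chloronema (9.57 to 10.5), and 3.01-fold after adjustment. A second PsaO gene, Pp1s248_61V6.2, had 1323 tags in chloronema and 891 in caulonema, which was 2.602-fold higher in chloronema, 2.03-fold adjusted. Both PsaO genes thus kept their call after adjustment, although the second lost it under the deposited TPM.

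Calls of 3 further photosystem genes were lost on adjustment. PSBR, an extrinsic subunit of photosystem II, had 822 tags in chloronema and 311 in caulonema (4.63-fold higher in chloronema, 1.25-fold adjusted), and its tag ends in CC. LHCA1, a light-harvesting protein of photosystem I, had 2510 and 822 tags (5.35-fold, 1.62-fold adjusted), and Pp1s158_109V6.1, as its model is named, has TC after the site. PsaH (Pp1s89_62V6.1), another subunit of photosystem I, had 107 tags in chloronema and 405 in caulonema, with a ratio of 2.16 that came to 1.77 on adjustment, below the limit for a call.

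The chlorophyll-binding antenna proteins, which gather light for both photosystems, differed between the libraries in both directions. Of 27 such genes 22 were tested, 5 were called higher in caulonema and 3 higher in chloronema, with ratios from 0.205 to 3.79, an 18.5-fold spread. Their median relative log2 ratio was -0.15, and 0.34 among the 21 with over 100 tags in both libraries. Their summed share of gene tags was 3.83% in chloronema and 4.34% in caulonema, and the scaled sums had a ratio of 0.955. Pp1s1_629V6.1 had 13925 tags in chloronema and 5009 in caulonema (4.87-fold higher in chloronema, 4.72 to 5.03, and 2.06-fold adjusted). An LHCB2.1 gene, Pp1s12_390V6.1, which encodes an antenna protein of photosystem II, had 142 and 71 tags (3.50-fold, 3.04-fold adjusted). On the other side, Pp1s186_25V6.2 had 2901 tags in chloronema and 16274 in caulonema (ratio 3.20, 3.08 to 3.33, adjusted 3.00), Pp1s51_305V6.1 had 894 and 5940 (3.79, adjusted 3.56) and Pp1s254_3V6.1 had 2030 and 8010 (2.25, adjusted 2.68). These 5 calls held, whereas those of LHCB2.1 Pp1s13_200V6.1 and of Pp1s256_10V6.1 and Pp1s241_66V6.1 did not. The spread between members was thus wider than the difference of the family's sums.

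Members of this family are so alike that their tags can differ by 1 base, counted from 1 at the 5′ end. The following pairs are shown because their tags are nearly alike. At the 1 mismatch allowed in matching, an exact tag could be assigned to the wrong gene in the first pair. In the second pair, whose tags differ at 2 bases, it could not. The differing bases are in capitals. The first pair differs by A8G and the second by A10G and G19A.

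Pp1s186_25V6.2: catgggcAtacgccaccaact
Pp1s51_305V6.1: catgggcGtacgccaccaact
Pp1s177_13V6.1: catgttctcAatgttcggGtt
Pp1s256_10V6.1: catgttctcGatgttcggAtt

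Both genes of the first pair were higher in caulonema by a like ratio, so that an exchange of tags between them would leave the direction as it is. Over all tested genes, 98 had a tag 1 base from that of another gene, and 40.8% of them were called, against 38.3% of the others.

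**Figure D3:**
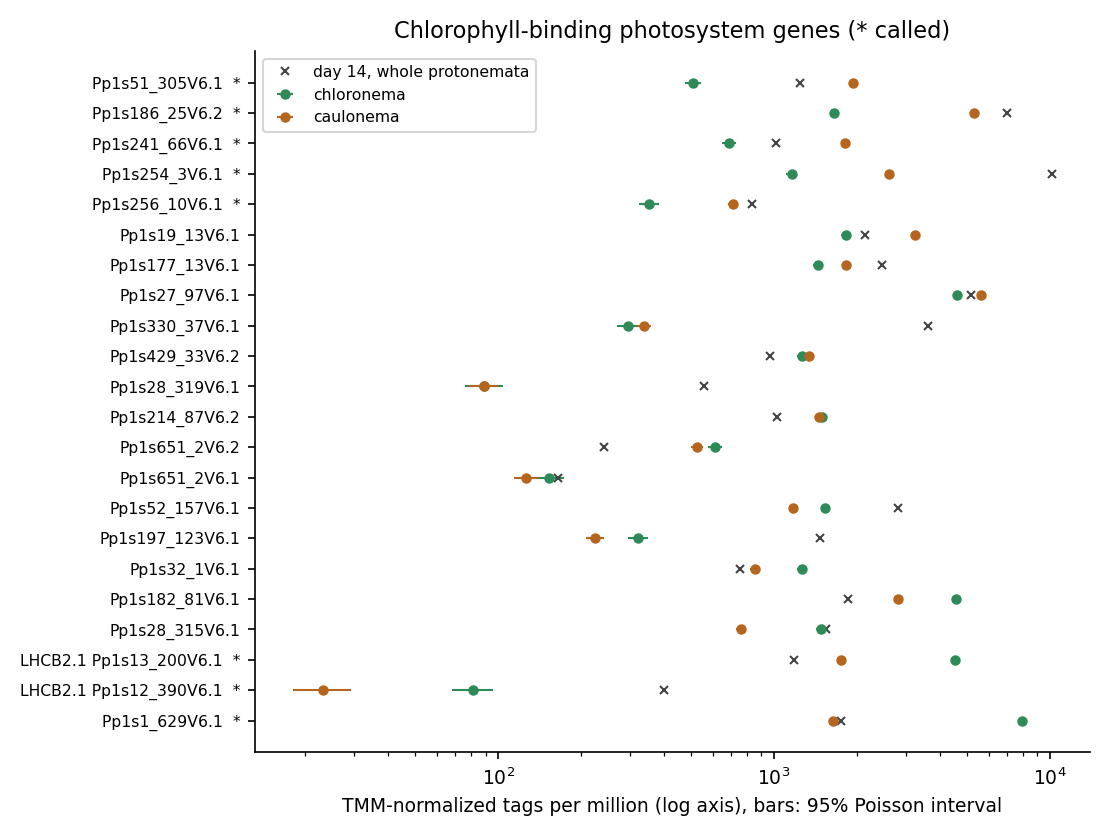
Levels of the 22 tested chlorophyll-binding photosystem genes in chloronema (green), caulonema (brown) and the uncut day-14 protonemata (crosses), in TMM-normalized TPM on a log axis with 95% Poisson intervals; an asterisk marks a call. The genes are ordered by ratio, from 3.79 at the top to 0.205 at the bottom, and the order of the tissues turns over within the family.

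The list of carbon fixation and photorespiration held 29 tested genes, of which 8 were called higher in chloronema and 5 higher in caulonema, with a median of -0.52, adjusted -0.71. After adjustment 5 and 4 of 28 were called, and held calls were 2 and 3. Under the day-14 filter the counts were 9 and 4 of 31. A further set held 13 tested carboxy-lyase genes taken by their GO terms as of the type of RuBisCO, the enzyme that fixes carbon dioxide. Of these 6 were called higher in chloronema and 0 higher in caulonema, and after adjustment 4 of 12 and 0. The most abundant RuBisCO small chain, Pp1s25_114V6.1, had 2861, 58166, 9620 and 1768 tags from day 3 to day 30, 21833 in chloronema and 10904 in caulonema (3.51-fold higher in chloronema, 3.43 to 3.59, and 3.30-fold adjusted). A further member, Pp1s339_15V6.1, had 272 and 84 tags (5.67-fold, 4.87-fold adjusted). Yet Pp1s251_44V6.1, with 2057 and 731 tags, went from 4.93-fold to 1.12-fold on adjustment, and the abundant Pp1s204_96V6.1, with 10623 and 20790, had a ratio of 1.12 (adjusted 1.10). The small chains therefore did not share 1 ratio.

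Electron carriers and the pentose phosphate cycle held examples of the same direction. Plastocyanin, which carries electrons to photosystem I, had 5184 tags in chloronema and 2582 in caulonema for Pp1s27_130V6.1 (3.52-fold higher in chloronema, 2.17-fold adjusted). Transketolase Pp1s120_127V6.1, an enzyme of the carbon-reduction and pentose phosphate cycles, had 3729 and 701 tags (9.32-fold, 2.04-fold adjusted). PGR5 (Pp1s114_172V6.1), needed in Arabidopsis for cyclic electron flow around photosystem I, had 124 and 56 (3.88-fold, 3.73-fold adjusted), and NDF6 (Pp1s127_94V6.1), a subunit of the chloroplast NADH dehydrogenase-like complex of Arabidopsis, had 370 and 155 (4.18-fold, 3.37-fold adjusted). The last 2, which serve the cyclic routes, were the least touched by the adjustment.

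Calls in chlorophyll synthesis went both ways, and their balance turned on adjustment. The list gave 9 genes higher in chloronema and 4 higher in caulonema of 35, and 3 and 5 after adjustment. Held calls were 1 and 4, against 3.16% and 12.3% of all genes. Under the day-14 filter the counts were 13 and 7 of 51. Towards chloronema, the unnamed member Pp1s23_102V6.1 had 310 tags in chloronema and 149 in caulonema, 3.65-fold higher in chloronema, and Pp1s51_315V6.1 had 361 and 268, 2.36-fold higher. GSA1 (Pp1s15_292V6.1) and HEMC (Pp1s116_53V6.1), which act early in porphyrin synthesis, had 68 and 91 tags in chloronema and 415 and 375 in caulonema, with ratios of 3.48 and 2.35 (adjusted 3.59 and 2.75). Both passed the tag minimum in caulonema alone. PORA (Pp1s108_171V6.2), a light-dependent protochlorophyllide reductase, had 126 and 961 tags, and its ratio of 4.35 came to 1.20 once its end in TT was adjusted for.

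The most abundant transcript of the chloronema library carried the name MSRB2, a plastid methionine sulfoxide reductase, but its tag does not identify a gene. Pp1s144_29V6.1 had 26449, 27534, 38309 and 123864 tags in the uncut libraries from day 3 to day 30. The captured libraries gave 66676 for chloronema and 23174 for caulonema, which was 5.04-fold higher in chloronema (4.97 to 5.12), 3.35-fold adjusted. The tag of Pp1s144_29V6.1 was catgCAaaaaaaaaaaaaaAA, a CATG site and a C followed by A alone, which any polyadenylated transcript that ends in the same letters would yield. It was the 1 tag among the 3951 with 16 A at its end. This gene made up 3.85% of the gene tags in chloronema and 0.906% in caulonema, and the plastid stroma list 9.95% and 6.397% with it, and 6.098% and 5.49% without it.

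Mitochondrial respiration had the lowest median of the pathway lists with 15 or more members before adjustment, -0.61. Its adjusted median was -0.44, where carbon fixation (-0.71) and other thylakoid genes (-0.47) were lower. Of its 75 genes 23 were called higher in chloronema against 10 higher in caulonema. After adjustment the counts were 13 and 5 of 72, and held calls were 4 and 4. Under the day-14 filter 30.6% of 85 were called higher in chloronema and 10.6% higher in caulonema. Ribosomal genes gave 54 and 24 of 228 (median -0.36, adjusted -0.38; 31 and 17 of 200 after adjustment), and ribosome biogenesis gave 13 and 8 of 71 (median -0.38, adjusted -0.39). Translation factors gave 13 and 15 of 70 with a median of 0.07, and 4 and 12 of 65 after adjustment. Beside these, subunit B of the F0 part of a chloroplast-type ATP synthase, Pp1s103_66V6.1, had 6450 tags in chloronema and 2490 in caulonema (4.54-fold, 2.97-fold adjusted), and a nucleoside diphosphate kinase, NDPK1 (Pp1s165_13V6.2), had 2676 and 1074 (4.37-fold, 3.30-fold adjusted).

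Single ribosomal genes went against their group. Pp1s21_269V6.1 had 369, 436, 703 and 1551 tags from day 3 to day 30, 746 in chloronema and 5459 in caulonema (ratio 4.18, 3.87 to 4.51, adjusted 2.80). RPL3B (Pp1s154_131V6.1), a protein of the large ribosomal subunit, had 285 and 1471 tags, and its ratio of 2.95 came to 1.29 on adjustment. Held calls in the ribosome list were 11 towards caulonema and 5 towards chloronema of 200. Both shares were below those of all genes, 12.3% and 3.16%.

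**Figure D4:**
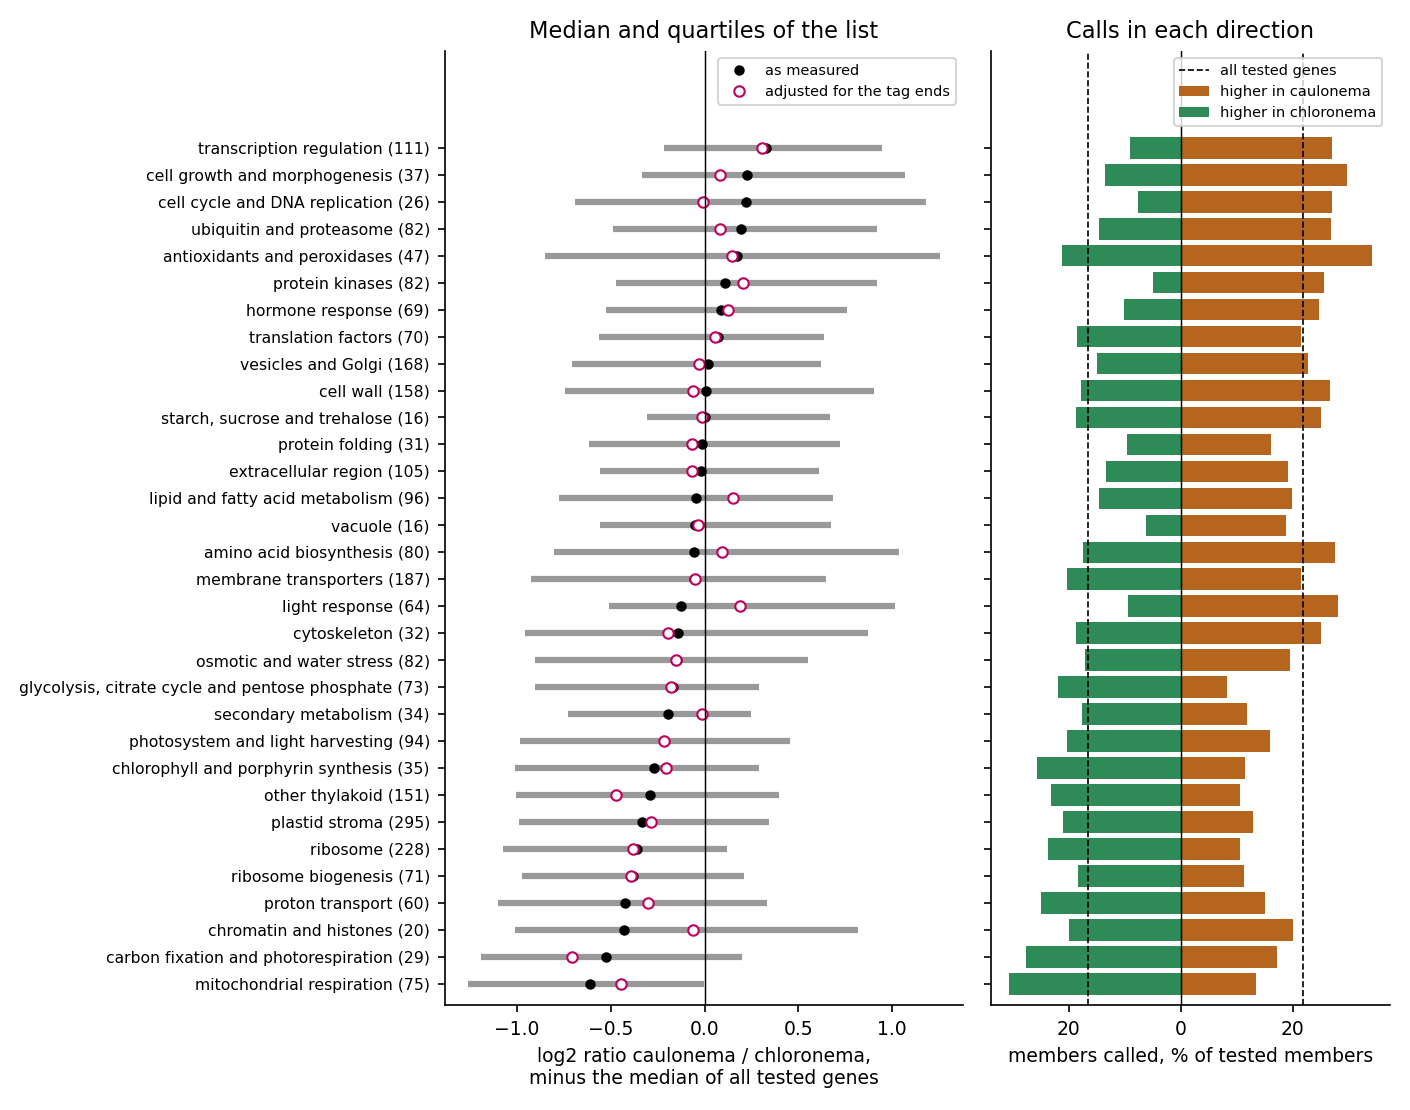
Left, the median log2 ratio of each pathway list taken from GO terms with 15 or more tested members, less the median of all tested genes, as measured (black, with quartiles as bars) and after adjustment for the tag ends (open circles); right, the percentage of members called in each direction, with dashed lines at the 21.8% and 16.5% of all tested genes. As measured, transcription regulation (0.33) stands at the top and mitochondrial respiration (-0.61) at the bottom. The open circles keep most of the order, but the lowest of them is carbon fixation and photorespiration (-0.71).

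Lists of regulation had more calls towards caulonema than towards chloronema, but only 38 of 111 genes of transcription regulation and 36 of 82 protein kinases passed the tag minimum in both libraries. Of 111 genes of transcription regulation, 30 were called higher in caulonema and 10 higher in chloronema (median 0.33), and after adjustment 28 and 1 of 103 (median 0.30). Within it the DNA-binding transcription factors gave 16 and 5 of 56, and 16 and 1 of 52 adjusted. Protein kinases gave 21 and 4 of 82 (median 0.11), and 20 and 4 of 71 adjusted (median 0.21). Under the day-14 filter transcription regulation gave 28 and 8 of 162 (17.3% and 4.94%), DNA-binding factors 14 and 3 of 75, and kinases 14 and 8 of 119 (11.8% and 6.72%), so that the share higher in chloronema was below the background and the share higher in caulonema near it. Among genes over 100 tags in both libraries, transcription regulation gave 1 and 5 of 38, DNA-binding factors 0 and 2 of 20, and kinases 4 and 3 of 36. Of all terms with 15 or more tested genes, the serine/threonine kinases had the highest median before adjustment, 0.84 over 21 genes with 9 called higher in caulonema and 1 higher in chloronema, which came to 0.43 on adjustment.

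Light and hormone regulators gave named examples, but those in this paragraph passed the tag minimum in caulonema alone, which favours a call in that direction. PIF3, a basic helix-loop-helix factor that binds phytochrome in Arabidopsis, was represented by a pair of genes that both leaned to caulonema. Pp1s84_22V6.1 had 39, 18, 32 and 18 tags from day 3 to day 30, 12 in chloronema and 164 in caulonema (ratio 7.80, 4.35 to 15.4, adjusted 3.53). Pp1s147_126V6.2 had 103, 67, 241 and 20, then 22 and 211 (ratio 5.47, adjusted 2.47). ARF6 (Pp1s316_22V6.1), an auxin response factor, had 18 and 172 tags, with a ratio of 5.45 (3.35 to 9.42) that adjustment for its end in TT took to 2.03 and out of the called range. The caulonema value of Pp1s84_22V6.1 and of Pp1s316_22V6.1 was above that of every other library in raw tags.

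Receptors and further factors gave the same direction, and all below but the calcium-dependent kinase passed the tag minimum in caulonema alone. A sensory histidine kinase, Pp1s343_34V6.2, had 49 tags in chloronema and 465 in caulonema (ratio 5.42, adjusted 3.76), and ETR3 (Pp1s54_307V6.1), an ethylene receptor, had 35 and 146 (2.38, adjusted 2.74). The MADS-domain factor PpMADS2 (Pp1s118_161V6.1) had 31 and 205 (3.77, adjusted 4.24), WRKY1 (Pp1s48_141V6.2) had 22 and 140 (3.63, adjusted 2.77), and a homologue of the basic helix-loop-helix factor AMS (Pp1s105_81V6.1) had 69 and 526 (4.35, adjusted 4.96). A calcium-dependent protein kinase, Pp1s187_77V6.1, had 106 and 454 (2.44, adjusted 2.598). In the light-response list, 18 of 64 genes were called higher in caulonema and 6 higher in chloronema, and in the hormone-response list 17 and 7 of 69. After adjustment these were 15 and 2 of 58, and 13 and 4 of 66. Under the day-14 filter they were 19 and 8 of 83, and 17 and 9 of 106. Among genes over 100 tags in both libraries they were 5 and 5 of 33, and 3 and 3 of 34. The median of the light-response list changed sign on adjustment, from -0.12 to 0.19, and that of the hormone-response list was 0.09 and 0.12.

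Of the DNA-binding factors, 5 were called higher in chloronema, and ABI3, a B3-domain protein that carries abscisic acid responses in seeds of Arabidopsis, kept its call on adjustment. Pp1s173_143V6.1 had 55, 23, 82 and 8 tags from day 3 to day 30, 190 in chloronema and 17 in caulonema, which was 19.6-fold higher in chloronema (11.9 to 34.3) and 7.36-fold after adjustment. It was the 1 DNA-binding factor of 52 with a held call towards chloronema, against 12 towards caulonema. Among all genes these shares were 3.16% and 12.3%. The MADS-domain gene PPMA10 (Pp1s90_121V6.1) had 187 and 63 tags (5.20-fold higher in chloronema, 1.56-fold adjusted), and Pp1s194_5V6.1 had 145 and 72, with 3.53-fold higher in chloronema turning to an adjusted ratio of 1.29 towards caulonema. PER1 (Pp1s12_126V6.1), a peroxiredoxin known from dormant seeds, had 134 and 11 tags (21.3-fold, 4.76-fold adjusted), but had 4976 at day 3. The chloronema count of ABI3 was above that of all other libraries.

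The cell wall list gave 42 genes higher in caulonema and 28 higher in chloronema of 158 (median 0.01), but 49 of its members are also ribosomal by their annotation. Without these it gave 29 and 19 of 109 (median 0.20, adjusted 0.05), and its share of gene tags was 1.55% in chloronema and 2.23% in caulonema. After adjustment 26 and 9 of 105 were called. Under the day-14 filter this list gave 28 and 26 of 141, and among genes over 100 tags in both libraries 11 and 13 of 54. A group of carboxylesterases annotated to cell wall organization, the class that holds enzymes trimming pectin, stood out within it. This family was added after values were seen. Of 46 such genes 13 were tested, 6 were called higher in caulonema and 0 higher in chloronema (median 0.63, adjusted 0.61), and the 13 took 0.274% of the gene tags in chloronema and 0.911% in caulonema. Under the day-14 filter 5 and 1 of 16 were called, and among genes over 100 tags in both libraries 4 and 0 of 7. Pp1s389_5V6.1, with 93 tags in chloronema and 12 in caulonema, missed the tag minimum and was not tested.

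The main member, Pp1s215_36V6.1, had 8727, 5199, 23124 and 4828 tags from day 3 to day 30, 1373 in chloronema and 10194 in caulonema (ratio 4.24, 4.00 to 4.49, adjusted 4.43). Pp1s236_72V6.1 had 437 and 2663 (3.48, adjusted 4.05), Pp1s461_15V6.1 had 507 and 2519 (2.84, adjusted 2.16), Pp1s32_31V6.1 had 22 and 175 (4.54, adjusted 4.29) and Pp1s378_15V6.1 had 31 and 185 (3.41, adjusted 6.44). All 5 calls held, but Pp1s32_31V6.1 and Pp1s378_15V6.1 passed the tag minimum in caulonema alone, which favours a call in that direction. That of Pp1s236_80V6.1, with 929 and 4645 tags, did not, as its ratio of 2.85 came to 1.25. Pp1s215_36V6.1 was higher at day 24 than in any other library.

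Other wall genes divided, and of these UDP-glucose 6-dehydrogenase, F8H and XYL1 passed the tag minimum in caulonema alone. UDP-glucose 6-dehydrogenase (Pp1s134_169V6.1), which feeds pectin and hemicellulose synthesis, had 29 tags in chloronema and 264 in caulonema (5.19, adjusted 2.76). F8H (Pp1s13_216V6.1), a glycosyltransferase linked to xylan in Arabidopsis, had 14 and 271 (11.05, adjusted 7.98), and the cellulose synthase-like D1 gene Pp1s243_3V6.2 had 110 and 452 (2.34, adjusted 2.71). The xylosidase XYL1 (Pp1s119_138V6.1) had 45 and 248 (3.14, both before and after adjustment). In contrast, an expansin, EXPB3 (Pp1s147_37V6.1), whose class loosens walls, had 259 and 115 (3.95-fold higher in chloronema, 4.79-fold adjusted). It had 0, 200, 8 and 3 tags at days 3, 14, 24 and 30, so that most of its tags lay in the day-14 and captured libraries.

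Of the growth and trafficking lists, vesicles and cytoskeleton stood close to the background. Cell growth and the cell cycle had more calls towards caulonema under the main filter. Vesicles and Golgi gave 38 genes higher in caulonema and 25 higher in chloronema of 168 (median 0.02), cytoskeleton 8 and 6 of 32 (median -0.14), and cell growth 11 and 5 of 37 (median 0.23, adjusted 0.08). The cell cycle list gave 7 and 2 of 26 (median 0.22, adjusted -0.01). Under the day-14 filter cell growth gave 12 and 5 of 56 (21.4% and 8.93%) and the cell cycle list 7 and 7 of 41, against 14.5% and 14.7% of all genes. Among genes over 100 tags in both libraries cell growth gave 0 and 3 of 13, and the cell cycle list 0 and 2 of 13. POK2 (Pp1s15_488V6.1), a kinesin that marks the division plane in Arabidopsis, had 9 and 148 tags (9.38, adjusted 3.11), and the small GTPase of the Rab11 type Pp1s209_99V6.1 had 59 and 270 (2.61, adjusted 3.40). Both passed the tag minimum in caulonema alone. The Golgi SNARE Pp1s87_56V6.2 had 142 and 39 (6.38-fold higher in chloronema, 4.65-fold adjusted). Calls for genes annotated to both microtubule-based process and nucleoside-triphosphatase activity, 3 higher in chloronema and 1 higher in caulonema of 7, were all lost on adjustment.

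Antioxidant enzymes gave 16 genes higher in caulonema and 10 higher in chloronema of 47 (34.0% and 21.3%), with 10 and 2 held calls of 46. Among all genes 21.8% and 16.5% were called, and 12.3% and 3.16% held. Under the day-14 filter antioxidant enzymes gave 16 and 10 of 58, and among genes over 100 tags in both libraries 3 and 7 of 26. The genes named below as higher in caulonema all passed the tag minimum in caulonema alone, which favours a call in that direction. CSD2 (Pp1s131_71V6.2), a copper/zinc superoxide dismutase, had 53 tags in chloronema and 525 in caulonema (5.65, adjusted 4.95), CAT3 (Pp1s119_47V6.2), a catalase, had 21 and 307 (8.34, adjusted 2.77), and an L-ascorbate oxidase, Pp1s144_8V6.1, had 20 and 460 (13.1, adjusted 14.5). A glyoxalase-type lactoylglutathione lyase, Pp1s120_79V6.1, which disposes of methylglyoxal, had 950 and 147 (11.3-fold higher in chloronema, 9.0-fold adjusted). Sulfite reductase SIR (Pp1s160_137V6.1), of sulfur assimilation, had 804 and 281 (5.01-fold, 3.76-fold adjusted). In secondary metabolism, a chalcone isomerase of flavonoid synthesis, Pp1s110_18V6.2, had 89 and 1024 (6.57, adjusted 3.50). Genes annotated to heat, wound or hypoxia response gave 0 higher in caulonema and 2 higher in chloronema of 8, and 0 of 7 after adjustment. This list cannot serve as a check on handling. Both tissues were cut from live protonemata, and a response shared by both would not show in the ratio. That list does not hold the wound-responsive family gene Pp1s122_6V6.1, with 16 tags in chloronema and 803 in caulonema (28.6, adjusted 19.2). Osmotic and water stress gave 16 and 14 of 82.

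The widest ratios came from genes listed in 1 captured library only, 8 absent in chloronema and 1 absent in caulonema. With an absent gene set to a floor of 3 tags, Pp1s232_1V6.1, at 0 in chloronema and 989 in caulonema, was 188-fold higher in caulonema. Such a value rests on the floor and is not a lower bound. It had 0, 178, 512 and 2 tags from day 3 to day 30. The lipid-transfer protein gene Pp1s136_71V6.1, at 0 and 251, was 47.7-fold higher in caulonema by the same floor and had 0, 67, 4841 and 7873 tags on the 4 days. Pp1s190_39V6.1 (0 and 166) and Pp1s139_117V6.1 (0 and 139) had 562 and 938 tags at day 24 and 436 and 1258 at day 30. The last 3 genes thus had their most tags at days 24 and 30. Pp1s98_113V6.1 was the 1 gene absent in caulonema, with 320 tags in chloronema and 6, 0, 22 and 410 on the 4 days. By the same floor it was 187-fold higher in chloronema. All 9 genes kept their call on adjustment.

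MSS1 (Pp1s101_17V6.1), named for a sugar transporter of Arabidopsis, had 2222, 239, 1522 and 87 tags from day 3 to day 30, 6 in chloronema and 306 in caulonema (ratio 29.1, 13.2 to 79.9, adjusted 10.1). Next to it, scpl20 (Pp1s131_72V6.1), a serine carboxypeptidase-like protein, had 23 and 552 (13.7, adjusted 4.23). MSS1 and scpl20 passed the tag minimum in caulonema alone. Towards chloronema, the EF-hand calcium-binding protein Pp1s107_171V6.1 had 3, 117, 5 and 0 tags on the 4 days, 1245 in chloronema and 176 in caulonema (12.4-fold, 4.45-fold adjusted). The unnamed Pp1s68_127V6.1 had 1772 and 229 (13.6-fold, 4.83-fold adjusted). Both stood higher in chloronema than in every uncut-tissue library.

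The most abundant gene of the caulonema library was not called. Pp1s15_70V6.1 had 342, 66390, 30120 and 112 tags from day 3 to day 30, 20846 in chloronema and 68354 in caulonema, with a ratio of 1.87 (1.84 to 1.90, adjusted 1.60), which made up 1.20% and 2.67% of the gene tags. Among genes that the study followed by quantitative PCR, the reference gene Pp1s17_377V6.1 had 2006 tags in chloronema and 2084 in caulonema, a ratio of 0.593 (0.557 to 0.631, adjusted 0.542), although its deposited TPM did not differ between the libraries. Pp1s156_120V6.1 had 317 and 1173 tags, and its ratio of 2.11 came to 0.760 on adjustment. DWF1 (Pp1s130_191V6.3), a sterol synthesis enzyme, had 313 and 702 (1.28, adjusted 0.964) and Pp1s170_67V6.1 had 345 and 660 (1.09, adjusted 1.05), and neither was called. Pp1s20_229V6.1 and BTF3B (Pp1s29_196V6.1) stayed under the tag minimum.

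Each captured library was also set beside the uncut tissue, since caulonema spreads and buds form between day 14 and day 24. The stage comparisons and the captured comparison share no library, but they are not free of each other. Day-14 level enters the ratios of day 14 over day 3 and of day 24 over day 14. The captured ratio itself fell with day-14 level (Spearman's rho -0.24 over the 4292 genes). How much of the values below goes with day-14 level was not tested. Genes called higher in caulonema had a median log2 ratio of day 24 over day 14 of 0.40, and those called higher in chloronema -1.07, against -0.44 for genes not called and -0.39 for all tested. Of the genes higher in chloronema, 52.3% (371) were over 2-fold lower at day 24 and 3.66% (26) over 2-fold higher, against 32.6% and 14.8% of all tested genes. Of the genes higher in caulonema, 31.7% were over 2-fold higher at day 24 and 17.5% over 2-fold lower. With both comparisons adjusted for the tag ends, the medians were 0.45 for genes called higher in caulonema, -1.09 for those higher in chloronema and -0.50 for the rest. Across the 3951 genes Spearman's rho between the ratios was 0.36 before and 0.37 after adjustment, given as a description, since genes are not independent.

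The other stage comparisons went the opposite way or gave less. For day 14 over day 3 the medians were -0.01 for genes higher in caulonema and 0.68 for genes higher in chloronema (adjusted, -0.10 and 0.74), against 0.29 for all tested. Of the genes higher in chloronema 33.8% were over 2-fold higher at day 14 and 8.03% over 2-fold lower, against 24.9% and 12.5% of all tested. For day 30 over day 24 they were -0.71 and 0.29, and -0.14 and 0.19 after adjustment, where rho went from -0.18 to -0.06. Of all tested genes 29.6% were over 2-fold higher at day 30 and 28.1% over 2-fold lower. The stage comparisons share libraries with each other, and their values are not independent of one another.

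**Figure D5:**
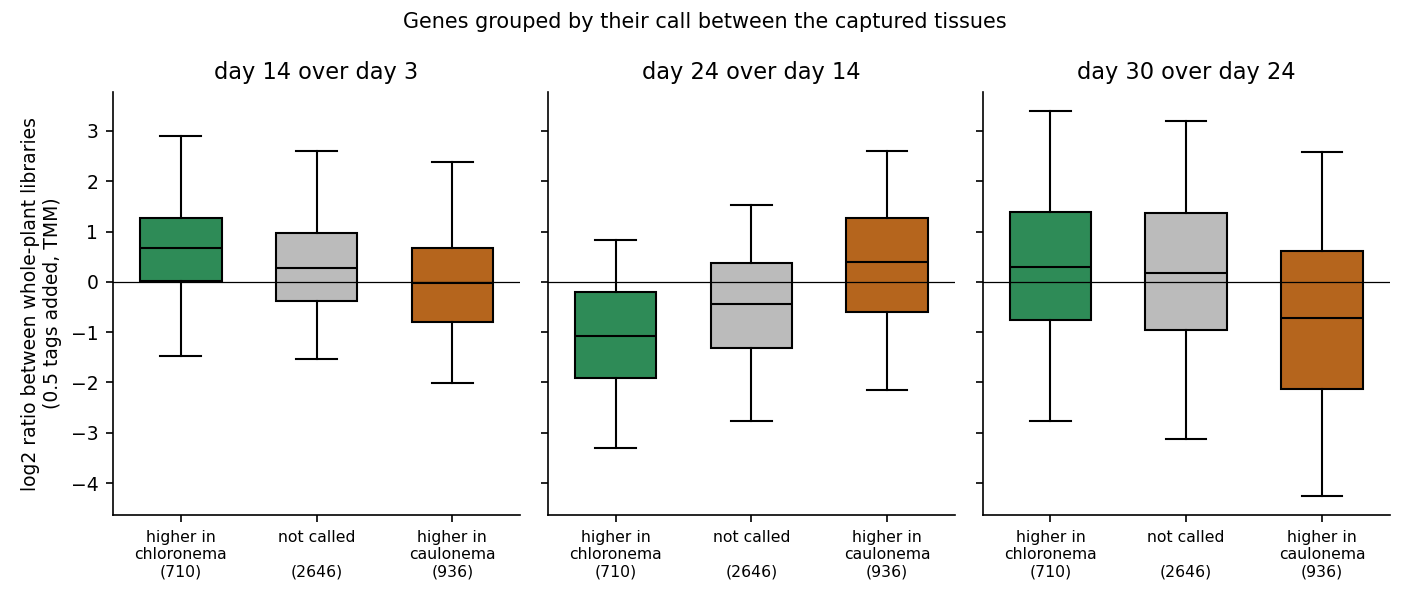
Log2 ratios between successive uncut-tissue libraries (y axis) for genes called higher in chloronema (710), not called (2646) and called higher in caulonema (936); boxes show median and quartiles and whiskers the central 90% of genes. At day 24 over day 14 the medians are -1.07, -0.44 and 0.40 from left to right, and the order turns over in the comparisons on either side.

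Day-14 protonemata hold both filament types, yet the uncut-tissue value did not always lie between those of the captured cells. Of the genes called higher in caulonema, 466 of 936 had a day-14 level between both captured levels, 232 above and 238 below. For genes higher in chloronema these were 358, 151 and 201 of 710. Across the tested genes the Spearman correlation of levels was 0.63 between chloronema and caulonema, 0.65 between day 14 and chloronema and 0.64 between day 14 and caulonema, with no clear order among the 3.

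A gene is represented by a single listed tag in each library, and for 341 genes (7.96%) it differed between the captured libraries. Of these, 34.3% were called (66 higher in caulonema and 51 higher in chloronema), against 38.6% of genes with the same tag. The site lay nearer the 3′ end in caulonema for 177 of them and in chloronema for 147. The following pair is shown for PSBX (Pp1s116_110V6.1), a small subunit of photosystem II with 6281 tags in chloronema and 3998 in caulonema (2.75-fold higher in chloronema), because its counts refer to different sites. The CATG site is in capitals.

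PSBX, chloronema: CATGtcggtgctttatatact
PSBX, caulonema: CATGagtttttcttagtgtga

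The chloronema tag of PSBX was the first site from the 3′ end and again had TC after the site, and the caulonema tag, also listed at day 14, was the second. Its ratio compares 2 sites and was not adjusted.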

How the data were processed

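Digital gene expression tag profiling libraries were made from the 2 captured tissues and from tissue at 4 stages, each from RNA of 3 biological replicates pooled beforehand. Transcripts were cut at CATG, joined to a first adapter at that end, cut again by MmeI and joined to a second adapter, which leaves tags of 21 bases. The deposited counts are tags per gene model, made by the authors by removing adapter-only, single-copy and multi-gene tags and matching with at most 1 mismatch to Phytozome gene models (blastn in the methods, Bowtie in the submitters' processing notes). The deposited TPM are the authors' counts divided by 1 number per library, and the deposited number of the CATG site counts from the 3′ end.

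Ratios were scaled with TMM factors (edgeR 4.0.16, R 4.3.3) and tested in Python 3.11.15 (scipy 1.17.1) with the exact binomial test, two-sided, and Benjamini-Hochberg adjustment. For log2 ratios 0.5 tags were added. With 1 library per tissue, a test with a measured spread was not possible. Intervals cover counting error only, and PCR copies are not independent molecules. The scripts were tested on simulated data.

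The tissues, gene lists and rules were chosen with earlier results of these data known. Of the lists, 35 came from GO terms and 13 families were added after values were seen, as were the adjustment for tag ends (least squares of the log2 ratio on both end pairs), the check of near-identical tags and the filters by day 14 and by both libraries. Genes were named by a rule: those the study names for these tissues or measured by quantitative PCR, the 15 called genes with the most extreme ratio at each end, the 3 most abundant called members of each list in each direction with the most abundant uncalled one, the 10 most abundant genes per library and the 10 most abundant with differing tags. Not every gene so chosen is printed, and others were named after their values were seen. A held call requires the same call under 5 scalings and after adjustment. No gene model matched RefSeq by identifier, and no coordinates are given.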

Additional observations from a re-analysis of the deposited data

How the results depend on the processing

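No paired analysis was possible because each tissue has 1 library. Beside the 1646 calls under TMM (936 and 710), the deposited TPM gave 2243, with 1978 towards caulonema and 265 towards chloronema, of which 1201 were the same calls. Genes over 100 tags in both captured libraries gave 657 (161 and 496), and genes over 100 tags at day 14 gave 1874 (932 and 942), both filters chosen after seeing the data. Without a filter on low counts 2821 genes were called (1500 and 1321), with over 500 tags in a library 368 (165 and 203), and over 4-fold 429 (256 and 173); these test more or fewer genes or ask for a larger ratio. The edgeR exact test with an assumed coefficient of variation of 0.2 called 603 (317 and 286), and with 0.4 it called 10 (9 and 1), so that the number of calls rests on a spread that these data do not measure. After adjustment for the tag ends 1054 were called, 378 of them towards chloronema. The counts stayed within 1.5 times under total gene tags, DESeq2 size factors, TMM over the captured libraries, centring on the median, over 100 tags in both libraries together, an adjusted p of 0.01, the same CATG site, 1 model per locus and leaving out near-identical tags. Of 48 lists, none had a median that left the interval of its members under total gene tags, the deposited TPM, 5 added tags or the same CATG site, although medians near 0 changed sign within it. After adjustment for the tag ends the median of histones and nucleosome assembly came to -0.003655, and that of SNARE and small GTPase genes reversed to -0.19. Among the genes named, the ratio turned on adjustment for Pp1s156_120V6.1 (0.760), Pp1s130_191V6.3 (0.964), Pp1s177_13V6.1 (0.550), Pp1s194_5V6.1 (1.29) and Pp1s256_10V6.1 (0.877), and under the deposited TPM for Pp1s17_377V6.1 (1.003). The cause was not tested.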
